A study of Mus musculus with 4 samples.

Results

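The genes of 9 gamma subunits of heterotrimeric G proteins (Gng2, Gng3, Gng4, Gng5, Gng7, Gng10, Gng11, Gng12 and Gngt2) were followed in aorta of mice with and without a knockout of GGPPS, the enzyme geranylgeranyl diphosphate synthase (gene symbol Ggps1). They were taken by symbol as a family whose proteins carry a prenyl lipid, and all 9 were found among the 24346 rows of each file. Transcripts were sequenced in 4 libraries of C57BL/6 mice aged 3 weeks, 2 labelled WT and 2 labelled KO. The labels give male and female animals for every library and name no promoter, target cell type or deleted exon for the knockout. Values are FPKM, fragments scaled for transcript length and for the library's mapped fragments, so levels of different genes can be set beside each other. In bulk tissue, fewer cells of a type and less RNA per cell cannot be told apart.

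A heterotrimeric G protein carries signals from receptors at the cell surface through an alpha subunit, which binds guanine nucleotides, and a tightly joined pair of a beta and a gamma subunit. The gamma subunit ends in a CAAX box, whose cysteine receives a lipid that holds the beta-gamma pair at the membrane. Where the last residue is leucine the lipid is usually geranylgeranyl, made by GGPPS and attached by geranylgeranyl transferase I, and where it is serine the lipid is usually farnesyl. In smooth muscle, G proteins couple receptors for adrenaline, angiotensin and endothelin to contraction. The present values are of transcripts and do not measure lipid attachment.

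The end of each coding sequence is shown because it places a gene in the geranylgeranyl or the farnesyl class. All 9 genes had a complete coding transcript in GENCODE M21 (build mm10), with 68 to 75 codons before the stop. The last 15 bases are printed 5′ to 3′ on the coding strand, with the cysteine codon and the last codon before the stop in capitals. Leucine codons close these 7 sequences.
Gng2, on the minus strand of chr14:19872559-19977627: TGCgccatcCTTtaa
Gng3, on the minus strand of chr19:8836933-8839194: TGTgcgctcCTCtga
Gng4, on the plus strand of chr13:13784059-13827896: TGCaccatcCTCtaa
Gng5, on the plus strand of chr3:146499807-146505572: TGCtcctttTTGtag
Gng7, on the minus strand of chr10:80948624-81014945: TGCataattCTCtag
Gng10, on the plus strand of chr4:59035088-59041903: TGTgctctaCTTtga
Gng12, on the plus strand of chr6:66896397-67021350: TGCatcatcTTAtag

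Serine codons close the other 2.
Gng11, on the plus strand of chr6:4003904-4008445: TGTgtcattTCAtaa
Gngt2, on the plus strand of chr11:95837216-95845734: TGTgtgctaAGCtga

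A cysteine codon stood 4 codons before the stop in 9 of 9 sequences. Over the whole coding sequence, Gng2 and Gng4 were the closest pair, with 73.7% identical columns in a global alignment, and Gng10 and Gng11 the most distant, with 45.5%. None of the 9 thus shares a near-identical coding sequence with another of them. A search of all GENCODE transcripts at 95% identity over 80% of the coding sequence found 5 further copies of Gng5, among them the pseudogene Gng5-ps, and none for the other genes. Reads of Gng5 could be shared with these copies, which the files do not list, so its level is uncertain to that extent.

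Ggps1 itself stood at 8.96 and 10.6 FPKM in the WT libraries and at 1.18 and 1.07 FPKM in the KO libraries, in the direction of the labels (log2 fold change -2.34, SE 0.129, limma adjusted p = 3.5e-09). The FPKM columns summed to between 515927 and 520478 in WT and between 611767 and 632918 in KO. Across tested genes, Pearson's r of the log2 values was 0.996 between the WT libraries, 0.994 between the KO libraries and 0.884 to 0.897 between genotypes, as a description over genes, which are not replicates. Smooth muscle markers were abundant in each library, with summed levels of 15850 and 17770 FPKM in WT and of 4048 and 5338 FPKM in KO for 10 genes, while Eln, the elastin gene, was listed at 0 in all. Xist (8.45 to 35.2 FPKM) and Ddx3y (9.50 to 19.3 FPKM), which mark female and male cells, were both present in every library, so each held RNA of more than 1 animal. The balance of the sexes was uneven, and the Y-linked Kdm5d was lower in both KO libraries than in both WT libraries (limma adjusted p = 0.000855). Its part in the results on the gamma genes was not tested.

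The comparison of KO with WT asked how transcripts of the gamma subunits stood when Ggps1, whose enzyme makes the lipid of the geranylgeranyl class, was low. Gng5, the most abundant gamma gene in these aortas, rose to 2.07 times its WT level in KO. Gng12, the next most abundant in WT, fell to 71.4% of its WT level. Gng10 and Gng11 followed in abundance and differed by less, at 1.19 and 1.02 times WT. The other 5 genes were at low levels, of which Gng2 rose and Gng7 stood lower in both KO libraries.

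Of the 9 genes, 6 reached at least 1 FPKM in at least 2 libraries and were tested with limma on log2(FPKM + 1), with Benjamini-Hochberg adjustment over all 12314 genes that reached it. At an adjusted p under 0.05, 3 of the 6 were higher in KO (Gng2, Gng5 and Gng10) and 1 was lower (Gng12), while Gng11 and Gngt2 did not pass. Among all tested genes 35.2% were called higher, 30.6% lower and 65.7% in either direction, so the 4 calls among 6 genes are near the background. FPKM of the genotypes did not overlap for 5 of the 6 genes, against 83.1% of all tested genes. The median log2 fold change was 0.21 for the 6 genes and 0.03 for all tested genes, and with equal column totals these medians were -0.03 and -0.20. Gng2 entered the test only through its KO libraries and could not have been called lower. With 2 libraries per genotype the smallest p of an exact two-sided permutation test is 0.333, so none was run.

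**Figure D1:**
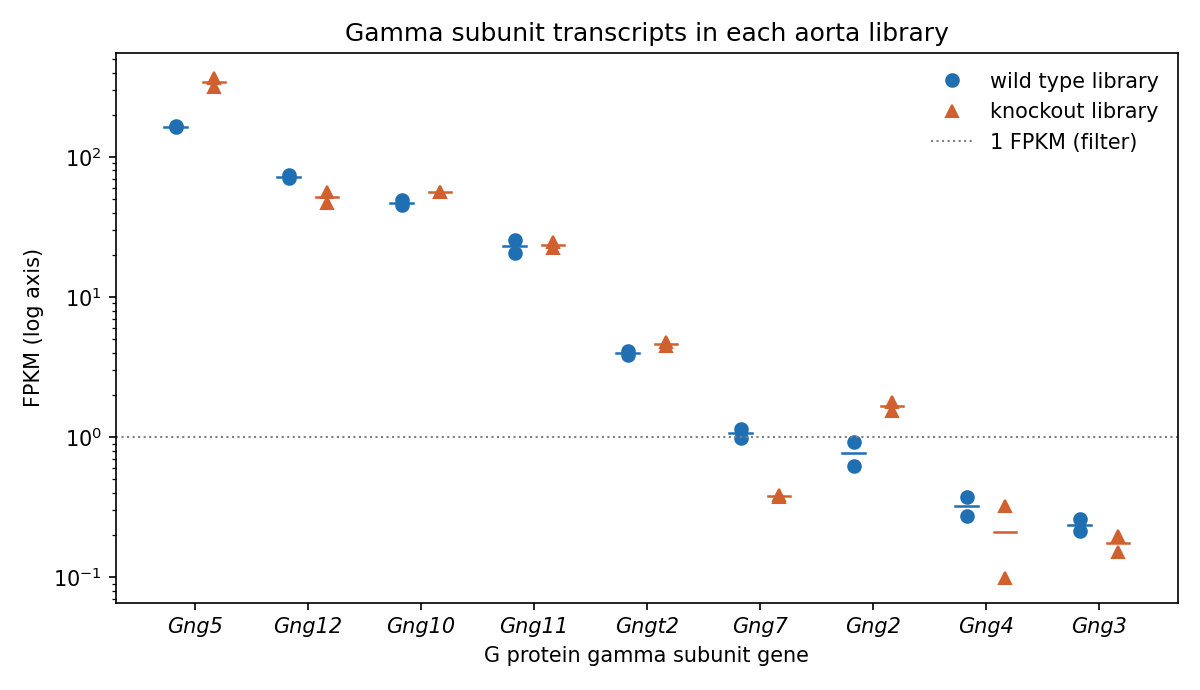
FPKM of the 9 gamma subunit genes (log axis) in each library, ordered by mean WT level, with circles for the 2 WT libraries, triangles for the 2 KO libraries, and short lines for the means. Gng5 is at 162 to 166 FPKM in WT and at 316 to 366 FPKM in KO, and Gng3, Gng4, the WT values of Gng2 and the KO values of Gng7 lie under the dotted line at 1 FPKM.

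Gng5 encodes a broadly expressed gamma subunit of the geranylgeranyl class. It stood at 166 and 162 FPKM in the WT libraries and at 366 and 316 FPKM in the KO libraries. Both KO libraries were far above both WT libraries, and the KO libraries differed from each other by more than the WT libraries did. The means were 164 ± 2.87 and 341 ± 35 FPKM (SD, n = 2 per genotype), a log2 fold change of 1.04 (SE 0.1, 95% interval 0.829 to 1.26, limma adjusted p = 7.31e-07). Its mean was above that of 96.1% of tested genes in WT and of 97.8% in KO. The tested genes nearest to it in pattern, by Euclidean distance of log2(FPKM + 1) from the WT mean over the 4 libraries, were Ube2cbp (distance 0.0294) and Pcdhgc5 (0.0488). Their levels were lower, at 0.438 and 0.411 FPKM in WT and 2.21 and 1.70 FPKM in KO for Ube2cbp, and at 2.15 and 2.22 FPKM against 6.08 and 5.12 FPKM for Pcdhgc5. Ube2cbp passed the filter through KO only. The KO mean was 4.6 times the WT mean for Ube2cbp and 2.56 times for Pcdhgc5, against 2.07 times for Gng5. The nearness thus holds on the log2(FPKM + 1) scale and not for ratios of FPKM.

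Gng12 encodes another geranylgeranyl-class subunit of wide expression. Its levels were 70.4 and 74.3 FPKM in WT and 47.2 and 56.0 FPKM in KO. Both KO libraries were below both WT libraries, with KO library 1 the lowest. The means were 72.3 ± 2.77 and 51.6 ± 6.23 FPKM (SD, n = 2), a log2 fold change of -0.48 (SE 0.110, 95% interval -0.719 to -0.246, limma adjusted p = 0.00155). With equal column totals the change was -0.74. The GENCODE span of Gng12 is overlapped on the opposite strand by the antisense gene Gm36816 over 19230 bases, and the sources used here do not say whether strand entered the counting.

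Gng10, also of the geranylgeranyl class, was at 49.0 and 45.4 FPKM in WT and at 56.1 and 56.0 FPKM in KO. The KO libraries lay close together and above both WT libraries. The log2 fold change of 0.24 (SE 0.102, 95% interval 0.025 to 0.463) was just past the threshold by limma (adjusted p = 0.0481). In 10 of 14 alternatives it was no longer past it. Those included leaving out WT library 1 or 2 or KO library 1 or 2 (limma adjusted p = 0.145, 0.365, 0.0596 and 0.0558), and the sign turned with equal column totals (-0.015) and with trends in transcript length and GC content removed (-0.19). Gm20503, a protein-coding gene on the same strand, covers 6801 bases of the Gng10 span and is not listed in the files, so reads of the pair cannot be told apart.

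Gng2, known for its role in leukocyte and neuronal signalling, was at 0.624 and 0.923 FPKM in WT and at 1.77 and 1.54 FPKM in KO. It was higher in both KO libraries, at 2.14 times the WT mean. On the log2(FPKM + 1) scale the change was 0.59 (SE 0.131, 95% interval 0.304 to 0.867, limma adjusted p = 0.00135). That size rests on the pseudocount, being 1.02 with 0.1 FPKM and 0.21 with 5 FPKM, each past the threshold. General leukocyte markers moved with it, with 10 of 10 tested genes higher, against 35.2% of all tested genes. Of these markers, Ptprc, Cd53, Itgb2 and Was passed the filter through the KO libraries only and could not have been called lower. Coro1a (1.275 and 0.833 FPKM in WT) and Lcp1 (0.903 and 1.29 FPKM in WT) also needed a KO library to pass it. The 10 genes had summed levels of 16.7 and 17.9 FPKM in WT against 249.6 and 201.1 FPKM in KO. Their part in the change of Gng2 was not tested.

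The remaining geranylgeranyl-class genes were not tested because they fell short of the filter. Gng7, known from striatal neurons where it works with the olfactory-type alpha subunit, was at 1.15 and 0.981 FPKM in WT and at 0.385 and 0.372 FPKM in KO. Its KO mean was 35.5% of the WT mean and its genotypes did not overlap. With no filter on low values Gng7 was 0.58 lower on the log2 scale (limma adjusted p = 0.00203). Gng3, a neuronal subunit, was at 0.262 and 0.214 FPKM in WT and at 0.197 and 0.152 FPKM in KO. Gng4, found chiefly in brain, was at 0.373 and 0.275 FPKM in WT and at 0.0994 and 0.324 FPKM in KO. With no filter neither Gng3 nor Gng4 passed (limma adjusted p = 0.241 and 0.322). The neuronal markers Snap25, Elavl4, Nefl and Syt1 were at 0.102 FPKM or less in every library. Of the other 4 in that list of 8, Stmn2 fell from 3.76 and 3.71 FPKM to 1.90 and 2.69 FPKM (limma adjusted p = 0.0039), and Tubb3 and Prph were called higher after passing the filter through KO only. Uchl1, at 79.6 and 76.1 FPKM in WT and 616 and 593 FPKM in KO, made up most of the summed list, which was 80.5 to 84.4 FPKM in WT and 619 to 637 FPKM in KO. The span of Gng3 lies opposite Bscl2, a gene of lipid droplet formation, over 1728 bases. Bscl2 was at 34.6 and 32.3 FPKM in WT and at 46.1 and 49.8 FPKM in KO.

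The farnesyl-class genes Gng11 and Gngt2 did not pass the test. Gng11, known from endothelial cells and platelets among others, was at 25.3 and 20.7 FPKM in WT and at 24.8 and 22.4 FPKM in KO. The genotypes overlapped, and the log2 fold change was 0.037 (SE 0.122, 95% interval -0.226 to 0.301, limma adjusted p = 0.799). With length and GC trends removed Gng11 was called lower, at -0.37 (limma adjusted p = 0.0154). Endothelial markers fell in the same libraries, with 10 of 11 tested genes lower (median -1.21), against 30.6% of all tested genes. These markers summed to 341.7 and 344.5 FPKM in WT and to 129.0 and 142.4 FPKM in KO. Platelet and megakaryocyte markers were mixed. Of 10 genes 4 were tested and 3 of them called higher, against 35.2% of all tested genes. Ppbp and Itga2b passed the filter through KO only, and Pf4 did not depend on it (8.22 and 7.85 FPKM in WT, 29.2 and 20.1 FPKM in KO). Below the filter, Gp1ba stood at 0.778 and 0.729 FPKM in WT and at 0.128 and 0.148 FPKM in KO, and Gp5 at 0.216 and 0.240 FPKM in WT and at 0.0160 and 0.0906 FPKM in KO. The list summed to 25.6 to 33.3 FPKM in WT and to 46.7 to 57.6 FPKM in KO. Of that list Gp6, a platelet collagen receptor, was listed at 0 in 3 of 4 libraries and at 0.0399 FPKM in KO library 1. The part of these markers in the level of Gng11 was not tested.

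Gngt2 encodes the gamma subunit of cone transducin and is also found in leukocytes. It was at 4.10 and 3.83 FPKM in WT and at 4.75 and 4.47 FPKM in KO. Both KO libraries were above both WT libraries, but the log2 fold change of 0.18 did not pass (SE 0.123, 95% interval -0.088 to 0.441, limma adjusted p = 0.22). Over the same libraries macrophage markers were higher in 12 of 12 tested genes, against 35.2% of all tested genes. Of these markers, Adgre1, Itgam and Fcgr1 passed the filter through KO only, and Aif1 (1.93 and 0.639 FPKM in WT) also needed a KO library to pass it. The list had sums of 77.6 to 78.1 FPKM in WT and 475 to 561 FPKM in KO. Of 11 lymphocyte markers none passed the filter, and they summed to 0.378 and 0.516 FPKM in WT and to 1.62 and 1.41 FPKM in KO. Abi3, an adaptor of the actin-regulating WAVE complex that lies opposite Gngt2 over 5261 bases, rose from 11.3 and 9.90 FPKM to 15.6 and 13.9 FPKM (log2 fold change 0.44, limma adjusted p = 0.00557). Without knowledge of strand use in counting, reads from the overlap cannot be assigned.

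**Figure D2:**
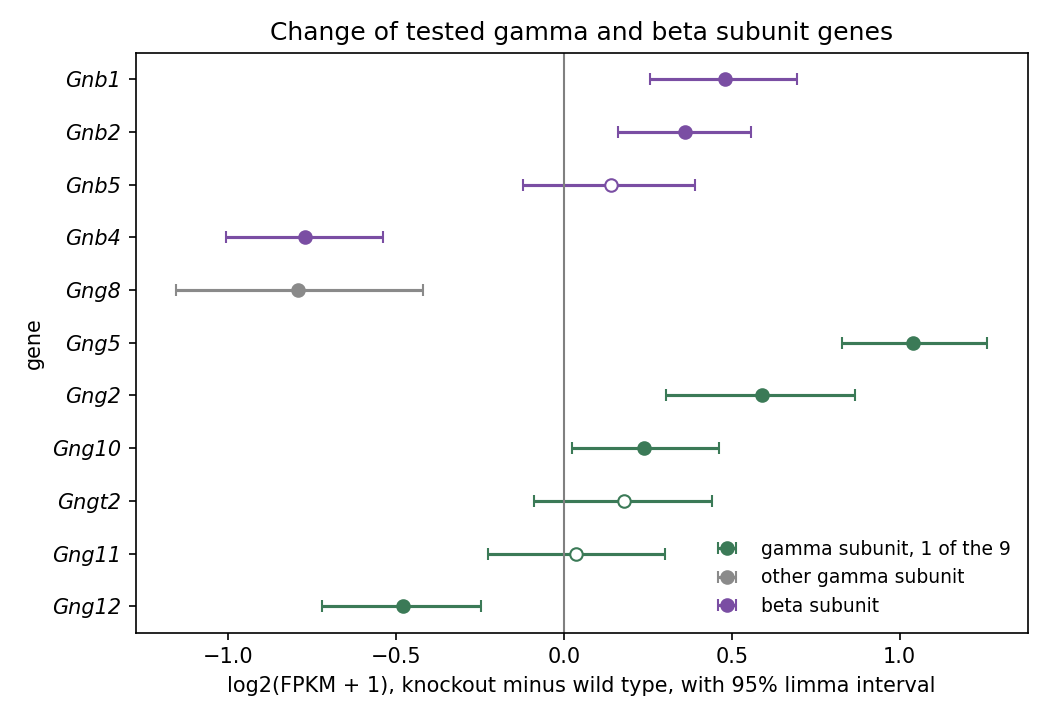
Difference in log2(FPKM + 1), KO minus WT, of the tested gamma and beta subunit genes with 95% limma intervals (n = 2 libraries per genotype), where filled points passed an adjusted p under 0.05 and open points did not. Gng5 is highest at 1.04, Gng12 lies at -0.48, and Gnb4 and Gng8 are lowest at -0.77 and -0.79.

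**Figure D3:**
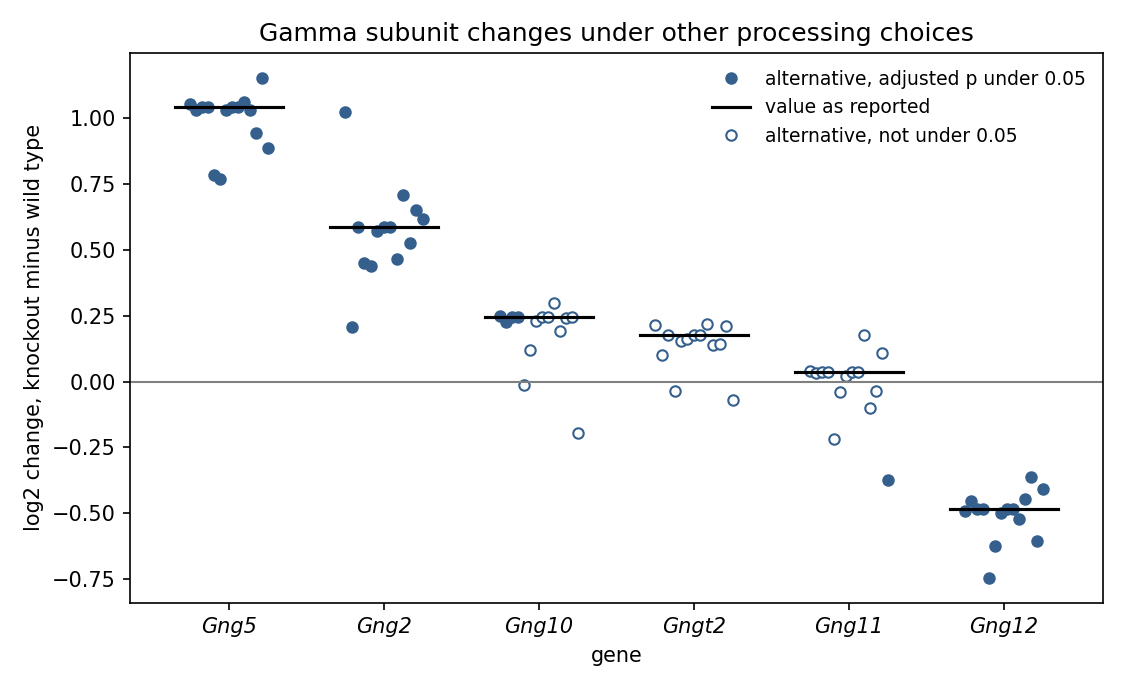
Log2 change, KO minus WT, of the 6 tested gamma genes under each alternative (points, filled where the limma adjusted p was under 0.05) and as reported (black lines). Gng5 stays between 0.766 and 1.15 and Gng12 between -0.743 and -0.362, while Gng10, Gng11 and Gngt2 each have points on both sides of 0.

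The makeup of the gamma transcripts shifted toward Gng5. The 9 genes summed to 318 and 309 FPKM in WT and to 501 and 457 FPKM in KO, a rise to 1.53 times the WT mean. Without Gng5 the sum was 151 and 147 FPKM in WT and 135 and 141 FPKM in KO, so the 8 other genes together were lower in both KO libraries. As a share of all FPKM, the 9 genes took 0.0605% ± 0.00155 in WT and 0.0771% ± 0.00681 in KO (SD, n = 2). Gng5 made up 52.4% and 52.5% of the summed gamma FPKM in WT and 73.0% and 69.1% in KO. The share of Gng12 went from 22.2% and 24.0% to 9.43% and 12.3%, and that of Gng10 from 15.4% and 14.7% to 11.2% and 12.2%. These 3 genes with Gng11 held 97.9% to 98.6% of the sum in each library.

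Ratios of genes within a library do not depend on how libraries are scaled to each other. There were 2.36 and 2.18 FPKM of Gng5 per FPKM of Gng12 in WT, against 7.74 and 5.64 in KO. The ratio of Gng5 to Gng10 was 3.39 and 3.57 in WT and 6.51 and 5.65 in KO. The ratio of Gng10 to Gng12 was 0.697 and 0.612 in WT and 1.19 and 0.999 in KO. In each of these 3 ratios both KO libraries stood above both WT libraries, which does not show which gene of a pair changed. Single genes separated the genotypes in this way in 83.1% of tested cases. Ratios can still depend on transcript length and GC content. With those trends removed, the log2 changes of Gng10 and Gng12 were -0.195 and -0.409, against 0.244 and -0.483 as reported. The serine-ending genes Gng11 and Gngt2 together held 29.4 and 24.6 FPKM in WT and 29.6 and 26.8 FPKM in KO, with overlap, while the leucine-ending genes held 288 and 284 FPKM in WT and 471 and 431 FPKM in KO. Without Gng5 that class held 122 FPKM in each WT library and 106 and 114 FPKM in KO, so its larger sum rests on Gng5.

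**Figure D4:**
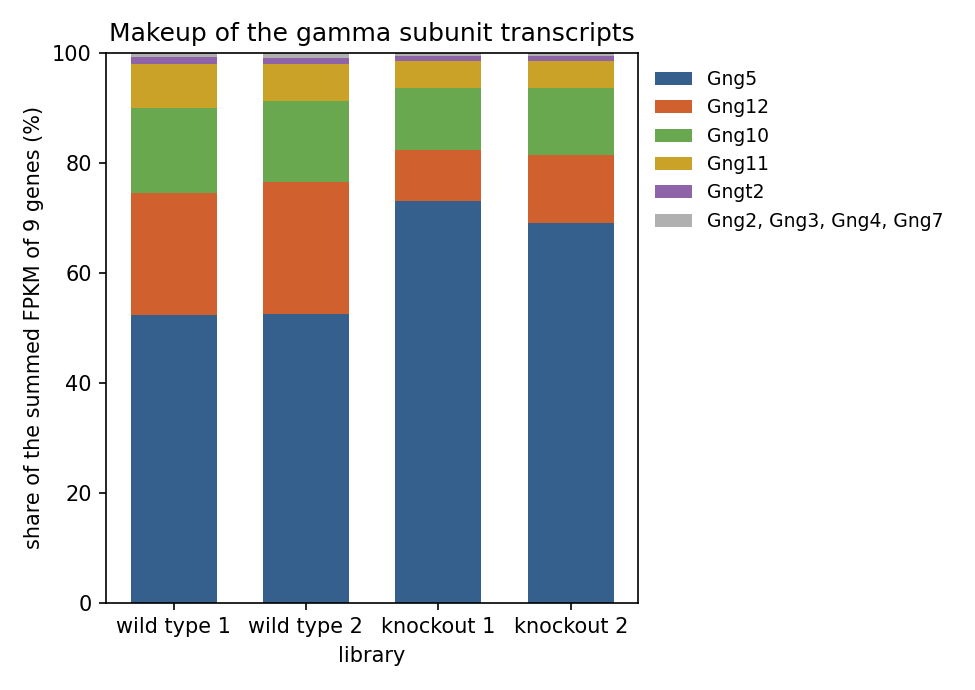
Share of each gene in the summed FPKM of the 9 gamma subunit genes, in percent, as stacked bars for the 4 libraries. The Gng5 segment grows from 52.4% and 52.5% in WT to 73.0% and 69.1% in KO, and the Gng12 segment shrinks from 22.2% and 24.0% to 9.43% and 12.3%.

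Of 4 other gamma genes, 3 had a row in the files. Gng8, known from olfactory tissue, was at 7.25 and 4.92 FPKM in WT and at 3.64 and 2.53 FPKM in KO, a log2 fold change of -0.79 (SE 0.17, limma adjusted p = 0.00108). That call ended without KO library 2 (-0.59, limma adjusted p = 0.0536). Gng13 reached 0.155 FPKM at most, and Gngt1, the gamma subunit of rod transducin, was listed at 0 in all 4 libraries, as was Eln, so a listed 0 need not mean a low level.

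Beta subunits, the obligate partners of gamma, moved in both directions. Gnb1 rose from 94.8 and 96.2 FPKM to 125 and 143 FPKM (log2 fold change 0.48, limma adjusted p = 0.000971), and Gnb2 from 197 and 200 FPKM to 258 and 252 FPKM (0.36, limma adjusted p = 0.00346). Both of these calls ended with equal column totals (0.21 and 0.097, limma adjusted p = 0.0567 and 0.344), and that of Gnb2 also with quantile normalization. Gnb4 fell from 72.3 and 68.0 FPKM to 37.6 and 43.9 FPKM (-0.77, SE 0.109, limma adjusted p = 2.91e-05), and its share of the summed beta FPKM went from 19.4% and 18.2% to 8.76% and 9.79%. Gnb5, which pairs with RGS proteins through their gamma-like domain, was at 8.61 and 8.33 FPKM in WT and at 9.07 and 9.73 FPKM in KO and did not pass (0.14, limma adjusted p = 0.328; its sign turned with equal column totals and with length and GC trends removed). Gnb3 was under 1 FPKM in all libraries. The 9 gamma genes held 0.851 and 0.829 FPKM per FPKM of the 5 beta genes in WT and 1.17 and 1.02 in KO.

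RGS proteins with a gamma-like domain, and the anchors that hold them, fell in 3 of 3 tested cases of 6 listed genes, against 30.6% of all tested genes. Rgs7 went from 13.2 and 9.80 FPKM to 2.56 and 4.04 FPKM (-1.55, limma adjusted p = 3.1e-06), Rgs11 from 5.26 and 6.06 FPKM to 1.84 and 1.37 FPKM, and the anchor Rgs7bp from 6.13 and 6.29 FPKM to 2.20 and 2.98 FPKM. These 3 calls held with equal column totals, quantile normalization, and length and GC trends removed.

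Among alpha subunits, 4 of 13 tested genes were higher and 4 lower, against the background of 35.2% and 30.6%, and with equal column totals 2 were higher and 6 lower. The inhibitory and related group held 2 rises and 3 falls of 5 tested genes. Gnao1, of neurons and other excitable cells, fell from 10.9 and 12.1 FPKM to 3.24 and 4.798 FPKM (-1.33, limma adjusted p = 3.47e-06). Gnai1 fell by 0.68 on the log2 scale, or by 0.45 without KO library 1. Gnaz also fell by 0.68, but it passed the filter through WT only and could not have been called higher. Gnai3 rose by 0.47, a call that ended with equal column totals (limma adjusted p = 0.08). The rise of Gnai2, 0.27, was lost with equal column totals (0.006), without WT library 1 or 2 (limma adjusted p = 0.118 and 0.133) and after removal of length and GC trends, and its sign turned with quantile normalization (-0.017). In the group that couples to phospholipase C, Gna15, of blood cells, rose from 0.309 and 0.0658 FPKM to 1.60 and 1.25 FPKM (limma adjusted p = 1.67e-05), having entered the test through the KO libraries only. Gnaq fell by 0.39, a call lost without WT library 1 or 2 (limma adjusted p = 0.114 and 0.0612) and when length and GC trends were taken out. Of the pair Gna12 and Gna13, Gna13 rose from 8.75 and 8.92 FPKM to 13.7 and 15.6 FPKM (0.67, limma adjusted p = 0.00023). Gnas, the stimulatory subunit and the most abundant of all, was at 852 and 943 FPKM in WT and at 700.1 and 903 FPKM in KO and did not pass (-0.17, limma adjusted p = 0.204), though it did as lower with equal column totals, with quantile normalization and without KO library 2 (-0.44, -0.52 and -0.36). Without KO library 1 its change was 0.01.

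Known targets of the beta-gamma pair were mixed, with 3 higher and 5 lower of 12 tested genes (median -0.19). Among all tested genes 35.2% were called higher and 30.6% lower. Adrbk2, a receptor kinase that beta-gamma brings to the membrane, fell from 3.95 and 4.87 FPKM to 1.24 and 1.57 FPKM (-1.17, limma adjusted p = 4.68e-06). Adcy7, an adenylyl cyclase, fell by 0.60, or by 0.26 with length and GC trends taken out. Pik3r5, a regulatory subunit of the leukocyte phosphoinositide 3-kinase gamma, rose from 0.165 and 0.105 FPKM to 1.86 and 1.35 FPKM (limma adjusted p = 2.81e-06). It passed the filter through KO only. Adcy2 rose by 0.93, and at 1.06 and 0.903 FPKM in WT it also needed a KO library to pass the filter. The channel genes Kcnj3 and Kcnj5 were listed at 0 in all libraries. With equal column totals 3 targets were higher and 8 lower (median -0.39), and with length and GC trends taken out 3 were higher and 2 lower of 10 tested (median 0.05).

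Genes that help assemble the beta-gamma pair rose in 8 of 10 tested cases (median 0.73), against 35.2% of all genes. They were the 8 subunits of the cytosolic chaperonin CCT, which folds beta subunits, among them Cct3 from 58.8 and 58.4 FPKM to 101 and 119 FPKM (0.90, limma adjusted p = 5.66e-06). Cct7 rose by 0.81, Cct4 by 0.77 and Cct8 by 0.81. The rise of Tcp1, 0.31, was not past the threshold with equal column totals (0.047) or without WT library 1 or 2 or KO library 2 (limma adjusted p = 0.0691, 0.196 and 0.0569), nor with quantile normalization or length and GC trends removed. Pdcl, the phosducin-like co-chaperone specific to beta-gamma, was at 14.4 and 15.1 FPKM in WT and at 13.9 and 15.0 FPKM in KO. It did not pass as reported (limma adjusted p = 0.836), but was called lower with equal column totals (-0.276, limma adjusted p = 0.0293). With that scaling 7 of the 10 assembly genes were higher and 1 lower (median 0.47).

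Of 7 genes for lipid attachment to gamma subunits, 3 were higher and Ggps1 lower, against 35.2% and 30.6% of all tested genes. With equal column totals 2 were higher and 4 lower, the added falls being Fnta, Icmt and Pggt1b (-0.39, -0.36 and -0.31). Fdps, which makes farnesyl diphosphate, rose from 29.03 and 25.02 FPKM to 90.9 and 92.4 FPKM, and Rce1, the protease that trims the CAAX box, rose by 0.62 on the log2 scale. Fntb, the beta subunit of farnesyltransferase, rose by 0.40, a call that ended without WT library 2, KO library 1 or KO library 2 (limma adjusted p = 0.286, 0.0591 and 0.0697), with no filter, with equal column totals and when length and GC trends were taken out. Pggt1b, the catalytic subunit of geranylgeranyl transferase I, was at 5.71 and 5.78 FPKM in WT and at 4.88 and 5.83 FPKM in KO and did not pass as reported (limma adjusted p = 0.555). Contractile smooth muscle markers were lower in 10 of 10 tested genes (median -2.24) in these same KO libraries, and the part of that shift in any gamma, beta or alpha result was not tested.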

How the data were processed

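Poly-A selected RNA of 4 mouse aorta libraries (2 WT, 2 KO by the genotype label) was analysed. Each library has a deposited table of FPKM, per the file headers, where the unit is misspelt. Build mm10 and, without roles, the tools DESeq2 1.16.1, featureCounts 1.5.0-p3 and HISAT2 2.0.5 are listed, per the submitters' processing notes. The program behind the FPKM, the depth and the use of strand are not given in the sources used here. Replicate numbers are names only. Nothing says that the libraries share no animals, so the spread behind each p-value is that of these libraries and may be technical.

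Log2(FPKM + 1) was tested with limma 3.58.1 (R 4.3.3, intensity trend, total degrees of freedom 13.4). The test covered the 12314 genes that 2 or more libraries held at 1 FPKM or above. The code was also run on simulated independent libraries with few changed genes, to see that known changes were recovered. In the real data 65.7% of tested genes were called, so that run does not check the p-values given here. Fold changes on the log2(FPKM + 1) scale understate changes of low genes, and folds called "times" are ratios of mean FPKM. Coding ends, overlaps and copies came from GENCODE M21 with Biopython 1.88 and BLAST 2.17.0. Alternatives were pseudocounts, filters, scalings, limma settings, each library left out and, added after seeing the data, length and GC trends removed (natural splines with 4 degrees of freedom, 96.3% of tested genes matched). The 9 genes and all lists were chosen with earlier results of these data known. Named by rule were the 9 genes, the beta subunits, Ggps1, up to 4 called genes per list by smallest p, and, for called gamma genes that changed at least 2-fold on the log2 scale, the 2 nearest genes in pattern. Other genes were named after their values were seen.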

Additional observations from a re-analysis of the deposited data

How the results depend on the processing

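Over 14 alternatives, Gng5 stayed higher (0.766 to 1.15 on the log2 scale) and Gng12 lower (-0.743 to -0.362), each past the threshold throughout, as did Gng2 over the 13 that tested it (0.205 to 1.02). Calls higher among the 6 tested gamma genes numbered 2 or 3, and calls lower 1, or 2 with length and GC trends removed. Equal column totals moved the median of all tested genes from 0.03 to -0.20 and the share of higher genes among calls from 53.5% to 35.8%.

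The value of Gng10, 0.24, was -0.0151 with equal column totals, -0.195 with length and GC trends removed, 0.121 with quantile normalization, 0.229 with equal medians, 0.244 with no trend and with robust estimation, and 0.190 to 0.297 with 1 library left out (lowest without WT library 2, highest without WT library 1). Its limma adjusted p ranged from 0.0469 to 0.896. Gng11 turned sign to -0.216 with equal column totals, -0.0407 with quantile normalization and -0.374 with length and GC trends removed, and ranged from -0.102 to 0.177 with 1 library left out. Gngt2 turned to -0.0373 with equal column totals and to -0.071 with length and GC trends removed. For Gng4, which was not tested, the difference of means ranged from -0.267 to 0.00111 with 1 library left out. A filter of 5 FPKM left Gng2 and Gngt2 untested. The causes of these shifts were not tested. Depth is unknown, so precision rests on 2 libraries per genotype.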
